A study of Mus musculus with 3 samples.

Results

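Conventional CD4 T cells of mouse blood were taken here as the droplet barcodes that held T cell receptor complex RNA and Cd4 RNA, and little or no RNA of the CD8 coreceptor, of regulatory T cells, of cytotoxic cells, of B cells or of neutrophils. In raw counts of unique molecular identifiers (UMIs, each standing for 1 captured RNA molecule) the rule asked for at least 200 genes, at most 10% mitochondrial UMIs, at least 2 UMIs of Cd3e, Cd3d and Cd3g together, at least 1 UMI of Cd4 and 0 of Cd8a and Cd8b1. It further asked for at most 1 UMI of Foxp3, Il2ra, Ikzf2 and Ctla4 together, at most 2 of Ccl5 and Nkg7, at most 1 of Cd79a and Cd79b, and less than 3% of UMIs from S100a8 and S100a9. Of 22204 barcodes, 637 (2.87%) met the rule. Measured values therefore chose these barcodes, and the levels of the 16 genes used in the rule are a description only.

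The study asked how prolonged sleep deprivation alters blood leukocytes, in 1 droplet library for each of 3 groups of C57/BL6J mice: undisturbed controls (Con, 0 h), and mice deprived of sleep for 24 h (SD24h) or 48 h (SD48h). Each library held the leukocytes of 3 mice, pooled in equal amounts after lysis of red cells with ammonium chloride, and about 7000 cells were planned per library. Neither an allele nor a transgene is named for any group, no age is given, and a sleep restriction condition named in the series text was not analysed here. The barcodes end in 1 of 3 numbers, called library 1, 2 and 3 below, and no label ties a number to a group. No library is therefore taken as the control, no order in time is read from the numbers, and with 1 library per group no p-value is given. Intervals in brackets are exact 95% intervals for counting error alone, and differences between mice, between preparations and between groups cannot be told apart.

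CD4 T cells recognise peptides presented on MHC class II molecules, and after activation they direct B cells, macrophages and CD8 T cells through cytokines and through CD40 ligand. Their commitment in the thymus depends on the transcription factor Zbtb7b (ThPOK), whereas the CD8 lineage depends on Runx3. Most CD4 T cells in the blood of young laboratory mice are naive: they circulate between blood and lymph nodes with the homing receptor Ccr7 and the egress receptor S1pr1, stay quiescent under Klf2 and Foxo1, and live on signals through the T cell receptor and the interleukin receptor Il7r.

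The class held 291, 149 and 197 barcodes in libraries 1, 2 and 3. Among barcodes with at least 2 UMIs of the CD3 genes (CD3 barcodes) its share was 21.2% [19.0 to 23.4] in library 1, 24.0% [20.7 to 27.6] in library 2 and 21.3% [18.7 to 24.1] in library 3. These intervals overlapped in all pairs of libraries. Among all barcodes past the filter on genes and mitochondrial UMIs the shares were 4.09% [3.64 to 4.57], 2.49% [2.11 to 2.92] and 3.41% [2.95 to 3.91], lowest in library 2, where the interval overlapped neither of the others. Neutrophil barcodes, which enter that denominator, numbered 236, 2663 and 1647. CD8 barcodes, chosen by the same rule with 0 UMIs of Cd4 and at least 1 of Cd8a or Cd8b1, numbered 202, 80 and 94. There were 1.44 [1.20 to 1.73] conventional CD4 barcodes for each CD8 barcode in library 1, 1.86 [1.41 to 2.48] in library 2 and 2.10 [1.63 to 2.71] in library 3. The ratio was lowest in library 1 and highest in library 3, and the intervals of all pairs overlapped. Barcodes that met the other clauses with no UMI of either coreceptor, 249, 122 and 152, were counted in neither class. The intervals do not cover coreceptor RNA that was missed in this way.

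**Figure D1:**
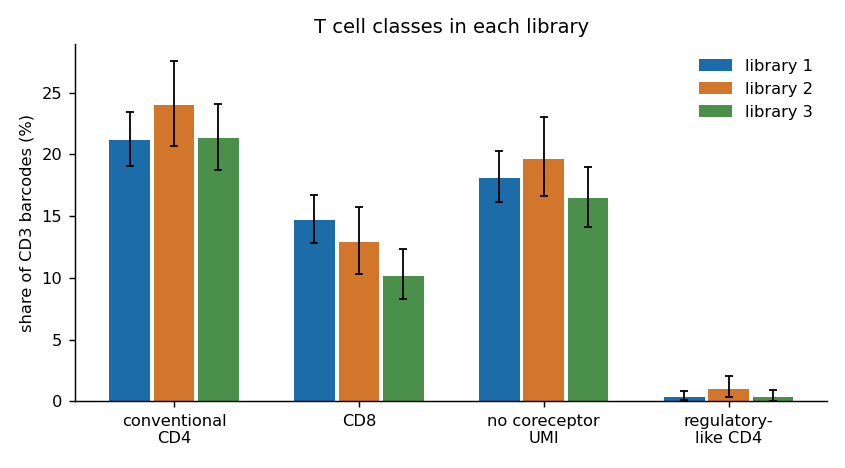
Bars give the share of CD3 barcodes (percent) in conventional CD4, CD8, no-coreceptor and regulatory-like classes for each of the 3 libraries, with exact 95% binomial intervals as lines. Conventional CD4 barcodes made up 21.2%, 24.0% and 21.3%, and regulatory-like barcodes under 1% of CD3 barcodes in each library.

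The class was of even depth. Its barcodes held a median of 5737, 6062 and 5855 UMIs and 1658, 1744 and 1701 genes, with 5.88%, 5.42% and 5.32% mitochondrial UMIs. Levels are given as UMIs per 1000000 UMIs of the class (CPM), from totals of 1667571, 922376 and 1177939 UMIs, and they are compared between classes or libraries for 1 gene at a time. Of the members, 180, 106 and 122 held exactly 1 Cd4 UMI, and none held more than 6. At the other side of that threshold 523 barcodes met every other clause of the rule with 0 Cd4 UMIs. The clause on CD8 genes left out 74 barcodes with exactly 1 such UMI, that on B cell genes 10 barcodes with 2 UMIs where 77 members had 1, and that on regulatory genes 3 barcodes with 2 UMIs where 9 members had 1. Of 61 barcode sequences found in more than 1 library, 1 belonged to a member, and no sequence was a member in more than 1 library.

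Markers that the rule did not use were present, as the label asks. Trac, the constant chain of the alpha beta T cell receptor, stood at 534, 654 and 676 CPM in libraries 1, 2 and 3, against 3.04, 1.55 and 3.45 CPM in B barcodes (at least 3 UMIs of the Cd79 genes, 0 of the CD3 genes). Lef1, a transcription factor of naive T cells, stood at 586, 714 and 535 CPM and its partner Tcf7 at 387, 452 and 388 CPM. The costimulatory receptor Cd28 stood at 327, 241 and 243 CPM, and Igfbp4, a secreted binding protein of insulin-like growth factors that marks naive CD4 T cells in mice, at 501, 1085 and 913 CPM. When each barcode was thinned to 2000 UMIs, leaving 288, 148 and 195 members, Lef1 was detected in 65.6%, 75.0% and 67.2% of them (unthinned, 90.4%, 95.3% and 91.9%) and Igfbp4 in 45.5%, 72.3% and 68.7%. Thinned B barcodes held an Igfbp4 UMI in 0.611%, 0.211% and 0.412% (unthinned, 1.56%, 0.751% and 0.946% of B barcodes at median depths of 3991, 3874 and 3672 UMIs, and 65.6%, 86.6% and 85.8% of members). All 5 markers outside the rule were above the B barcodes in all 3 libraries. B barcodes were chosen to hold no CD3 UMI, so this sets the members apart from B cells and not from other T cells. CD8 barcodes, for their part, held Lef1 at 523, 485 and 488 CPM, Tcf7 at 362, 321 and 316 CPM and Trac at 349, 503 and 501 CPM. Igfbp4 and Cd28 are compared with CD8 barcodes below. Several defining markers of other T and NK cells were at or near 0. The NK receptors Ncr1 and Klra8 had 0 UMIs over all 637 barcodes, Klrb1c, Zbtb16 of NKT cells and Tcrg-C1 of gamma delta T cells had 1 each, and the delta chain constant gene Trdc had 9, 9 and 4 UMIs in libraries 1, 2 and 3. The whole list of NK and cytotoxic genes was not at 0: 3 of its 13 genes had no UMI, and it summed to 259, 307 and 438 CPM, or 203, 121 and 140 CPM without the 9 barcodes with Tyrobp described next. Of these 13 genes 2 belong to the rule, which limits them in members. With all members, Fcer1g, a signalling chain of Fc receptors, made up 146, 139 and 216 CPM of the sum of that list. Klrd1 made up 36.6, 14.1 and 13.6 CPM and the perforin gene Prf1 19.8, 24.9 and 18.7 CPM. The list of NKT, gamma delta and innate-like T cell genes, which also holds Fcer1g, summed to 157, 173 and 234 CPM, or 130, 70.0 and 87.2 CPM without those 9 barcodes.

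Before any other result, 9 members have to be set apart. They held 13 to 67 UMIs of Tyrobp, a signalling adaptor of myeloid and NK cells, where no other member held more than 2. They were 2, 3 and 4 barcodes of libraries 1, 2 and 3, with a median of 12210 UMIs against 5784 in the other members. All 9 also held CD3 UMIs, between 3 and 20. In 6 of them Lyz2, the lysozyme of monocytes and neutrophils, reached 84 to 581 UMIs, and S100a4 reached 10 to 56 UMIs. The other 3 held 0 or 1 Lyz2 UMI. The doublet caller marked 6 of the 9. These barcodes carried 94.0% of all UMIs of Chil3, a chitinase-like protein of myeloid cells, 92.0% of Apoe, 93.9% of Plac8 and 79.2% of S100a4 in the class. Results that rest on them are given with and without them.

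**Figure D2:**
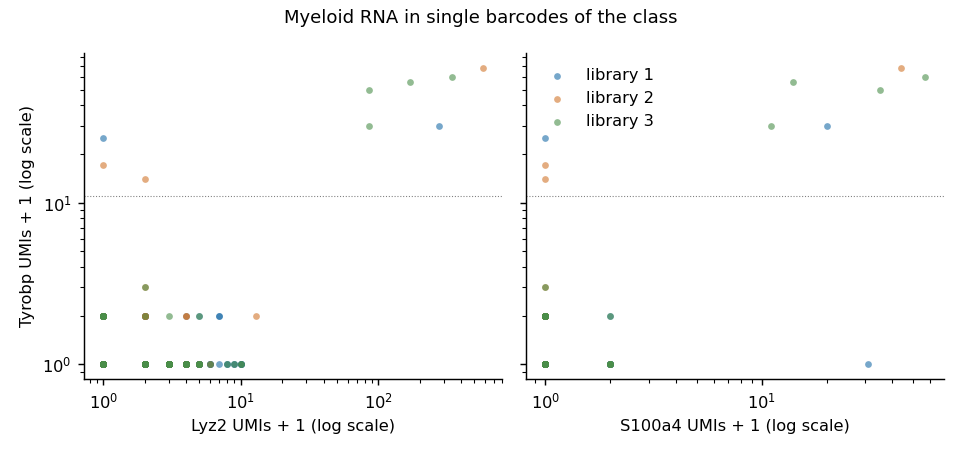
Each point is 1 of 637 conventional CD4 barcodes, placed by its UMIs plus 1 of Lyz2 (left) or S100a4 (right) and of Tyrobp on log scales, coloured by library; the dotted line marks 10 Tyrobp UMIs. The 9 barcodes above the line hold at least 13 Tyrobp UMIs, and 6 of them also hold at least 84 Lyz2 UMIs.

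Genes outside the rule were compared with CD8 barcodes of the same library, so that each ratio was taken within 1 library. A gene counted as different when its CPM ratio was at least 1.5 in the same direction in all 3 libraries, among 2954 genes with at least 50 UMIs over both classes in each library. By that rule 25 genes (0.846% of those measured) were higher in conventional CD4 barcodes and 22 (0.745%) were lower.

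First in rank on the CD4 side was Ly6c1, a surface glycoprotein anchored by a lipid (Ensembl ENSMUSG00000079018, GRCm38 chromosome 15, 75044018 to 75048830). It stood at 201, 203 and 256 CPM in conventional CD4 barcodes and at 19.7, 43.9 and 52.3 CPM in CD8 barcodes. Its ratio was 10.2 [6.69 to 16.3], 4.62 [2.96 to 7.54] and 4.88 [3.35 to 7.36]. The neighbouring and closely similar Ly6c2 ran the other way, at 8.40, 3.25 and 20.4 CPM against 139, 132 and 141 CPM, and because reads of the pair could be exchanged in counting both values are uncertain. Ly6a (Sca-1), a further member of the family, was 6.62, 2.93 and 2.32 times higher in the CD4 class. Igfbp4 was 3.37 [2.86 to 3.99], 2.68 [2.30 to 3.13] and 2.29 [1.98 to 2.65] times higher.

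Other genes higher in CD4 barcodes have known parts in T cell signalling. Itm2a, a membrane protein of activated and selected thymocytes, was 5.53, 3.53 and 4.93 times higher. Trat1, an adaptor that stabilises the T cell receptor complex, was 2.59, 2.69 and 2.29 times higher. Cd28 was 1.74 [1.49 to 2.05], 1.55 [1.19 to 2.03] and 1.76 [1.37 to 2.29] times higher, just past the fold used. Stmn1, which binds tubulin, stood at 47.4, 59.6 and 63.7 CPM against 14.6, 11.98 and 5.23 CPM. Ass1, an enzyme of arginine synthesis, was 2.33, 2.94 and 2.53 times higher, and the cytoskeletal adaptor Pdlim4 was 5.03, 10.1 and 2.51 times higher. Tspan32 and Tesc completed the 10 genes named on this side.

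On the CD8 side stood Ccr9, the receptor for the gut chemokine Ccl25, with 6.596, 1.08 and 4.24 CPM in conventional CD4 barcodes and 154, 136 and 148 CPM in CD8 barcodes. Klrd1, an NK receptor chain also carried by CD8 T cells, stood at 36.6, 14.1 and 13.6 CPM against 224, 202 and 206 CPM. Ctsw, a protease of cytotoxic lymphocytes, stood at 20.99, 30.4 and 22.1 CPM against 108, 140 and 94.2 CPM. Runx3, the transcription factor of the CD8 lineage, reached 46.2, 58.5 and 50.1 CPM against 157, 144 and 134 CPM, a ratio of 0.29 [0.22 to 0.39], 0.41 [0.28 to 0.59] and 0.37 [0.26 to 0.53]. Dnajc15, Epsti1, Fam241a, Tmem108 and Rras2 were also lower in the CD4 class in each library. Genes of the lineage lists that were under the UMI minimum are given by their levels alone. Zbtb7b stood at 36.6, 30.4 and 25.5 CPM against 6.01, 9.98 and 1.74 CPM, Cd40lg (CD40 ligand) at 72.6, 45.5 and 40.7 CPM against 6.01, 9.98 and 6.98 CPM, and Itgae, the integrin alpha E chain, had 0 UMIs in conventional CD4 barcodes and 40, 13 and 15 UMIs in CD8 barcodes.

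**Figure D3:**
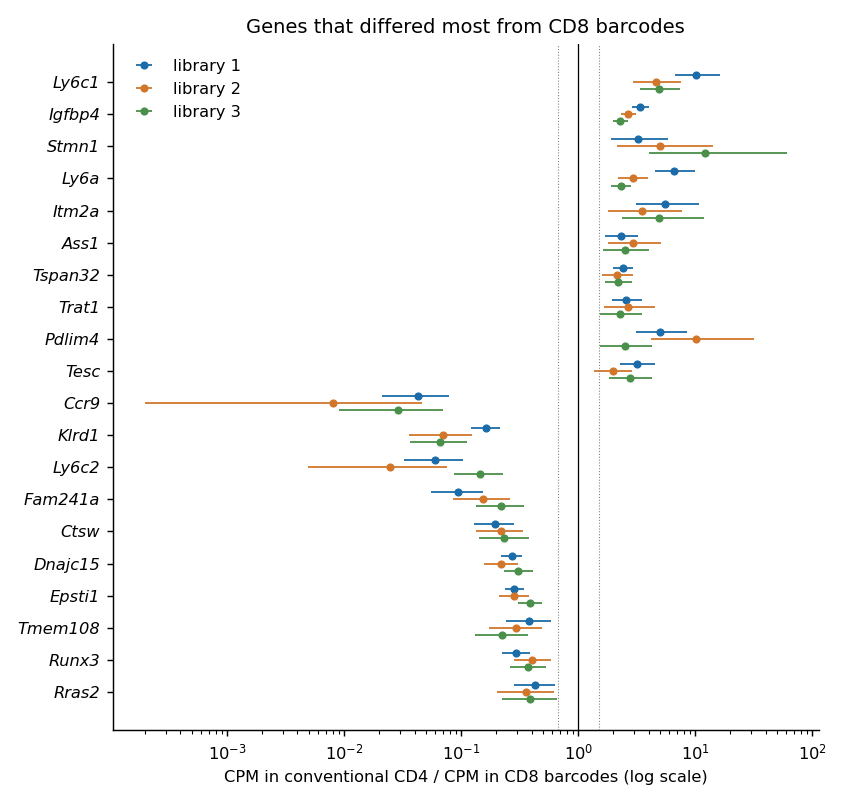
Points give the CPM ratio of conventional CD4 to CD8 barcodes in each library on a log axis, with exact conditional 95% intervals, for the 10 genes named in each direction; dotted lines mark 1.5-fold. Ly6c1 was 10.2, 4.62 and 4.88 times higher in CD4 barcodes, and Runx3 stood at 0.29, 0.41 and 0.37 times its CD8 level.

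The size of several of these differences depended on which CD8 barcodes were used. When barcodes with any Ccl5 or Nkg7 UMI were left out of both classes, the CD8 class shrank to 80, 29 and 33 barcodes, and 8 genes were higher and 1 lower among 2278 measured. The median log2 ratio of Ly6c1 over the libraries then moved from 2.29 to 0.71 and that of Igfbp4 from 1.42 to 0.61. Ly6a moved from 1.55 to 0.31, under the 1.5-fold used here, and Stmn1 from 2.32 to 1.03, while Ccr9 stood at -4.74 against -5.13 and Runx3 at -1.39 against -1.42.

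Conventional CD4 barcodes could hardly be told from CD3 barcodes without a UMI of either coreceptor (249, 122 and 152 barcodes). Of 3286 genes none (0%) was at least 1.5 times higher in all 3 libraries, and 1 (0.0304%) was lower. That gene was Prpf6, a splicing factor, at 22.8, 26.0 and 24.6 CPM against 40.5, 42.0 and 37.8 CPM, with intervals that reached 1 in 2 of the 3 libraries. It was named after its values were seen.

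Regulatory-like barcodes, which met the rule except for at least 2 UMIs of Foxp3, Il2ra, Ikzf2 and Ctla4, numbered 5, 6 and 3. Against them 133 of 2053 genes (6.48%) were higher in conventional CD4 barcodes and 203 (9.89%) were lower. Scaling by trimmed means (TMM) moved all log2 ratios up by 1.08, 0.868 and 1.38 in libraries 1, 2 and 3 and gave 580 higher and 23 lower, so the balance between directions is not fixed by these data. The genes named here as lower differed by more than that shift in each library. S100a4, a calcium-binding protein of effector, memory and regulatory T cells, stood at 34.2, 47.7 and 102 CPM in conventional CD4 barcodes and at 3721, 5482 and 3406 CPM in regulatory-like ones. S100a6 stood at 33.6, 104 and 107 against 3837, 3885 and 2248 CPM, and at 15.8, 24.8 and 31.4 CPM in the conventional class without the Tyrobp barcodes. Lgals1, a galactose-binding lectin, stood at 80.4, 73.7 and 77.3 against 1861, 1623 and 1226 CPM. Of the S100a4 UMIs in conventional CD4 barcodes 79.2% lay in the 9 Tyrobp barcodes, and without these S100a4 stood at 23.1, 1.13 and 6.29 CPM. Only 4 of the 5 regulatory-like barcodes in library 1 held under 10 Tyrobp UMIs, and all 5 stay in the regulatory-like values given here. Crip1, S100a10, S100a11 and the integrin chain Itgb1 were lower as well. In the other direction Igfbp4 had 0, 0 and 3 UMIs in the regulatory-like barcodes, Ly6c1 had 0 in all 3 libraries, and Bcl2, the survival factor, had 1, 0 and 0. With 14 barcodes in all, leaving out the barcode with the most UMIs of each gene gave 374 higher and 57 lower.

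S100a4 in turn was rare within the class. It was detected in 23 of 637 members, 7 held at least 3 UMIs, and 6 of these 7 were among the 9 barcodes with Tyrobp. The remaining barcode, in library 1, held 30 S100a4 UMIs and no more than 1 Tyrobp UMI. Among all 2920 CD3 barcodes 99 held at least 3 S100a4 UMIs. Of these 31 had a Cd4 UMI, and of those 14 were set aside by the regulatory genes and 8 held at least 3 UMIs of Ccl5 and Nkg7. After thinning to 2000 UMIs 5 members held at least 2 S100a4 UMIs, none of them in library 2, so no comparison within the class was made on this gene.

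Many genes that define T helper programmes were at 0, while genes that these programmes share with other T cells were detected. Tbx21 and Ifng of type 1 helper cells, Il5 and Il13 of type 2 helper cells, Il17a, Il17f and Il22 of type 17 helper cells and Il21 of follicular helper cells had 0 UMIs over all 637 barcodes, and Il4 had 1. At this depth a count of 0 does not show absence, since its exact interval reaches 2.21, 4.00 and 3.13 CPM in libraries 1, 2 and 3. Of the type 1 helper list 2 of 8 genes had no UMI, and Stat4 (39.6, 46.6 and 35.7 CPM) and the interleukin receptor chain Il18r1 (20.4, 17.3 and 17.8 CPM) made up most of its sum. Of the follicular helper list 2 of 8 genes also had no UMI, Bcl6 stood at 4.80, 6.505 and 10.2 CPM, and the signalling adaptor Sh2d1a at 91.8, 101 and 121 CPM. Gata3, which is also needed by naive CD4 cells, stood at 54.0, 48.8 and 31.4 CPM, against 28.3, 21.96 and 19.2 CPM in CD8 barcodes. Mki67, the proliferation marker, had 0 UMIs. Of the inhibitory receptors Tigit had 0 UMIs, Lag3 had 1, and Pdcd1 had 3, 1 and 1. The list of memory and activation genes was present, with 17 of 30 genes measured and a sum of 2205, 2411 and 2370 CPM. Within it Cd44, the hyaluronan receptor raised on memory cells, stood at 37.2, 19.5 and 41.6 CPM and Tnfrsf18 (GITR) at 27.6, 46.6 and 54.3 CPM.

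Levels were then followed over the 3 libraries. For each of 5777 genes with at least 50 UMIs over the libraries, the highest library was set against the lowest, and 1641 (28.4%) differed by at least 1.5-fold. Without the 9 Tyrobp barcodes these were 1586 of 5617 (28.2%). Of the 1641 genes 569 were highest in library 1, 559 in library 2 and 513 in library 3, and 646, 512 and 483 were lowest there. A gene list is read below against that background of 28.4%, with the count of its measured members past 1.5-fold. The call used the ratio without its interval, so genes with few UMIs can pass it through counting error. The background was not matched for level: T cell receptor signalling genes summed to 9371, 10075 and 9751 CPM, costimulation genes to 1289, 1159 and 1244 CPM. How far a list's share depends on the level of its genes was not tested.

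T cell receptor signalling genes were even, with 1 of 21 measured genes past 1.5-fold. That gene was Vav1, a guanine nucleotide exchange factor, at 29.4 [21.7 to 38.9], 60.7 [45.9 to 78.8] and 47.5 [35.9 to 61.7] CPM. The kinase Lck stood at 380, 429 and 424 CPM and the adaptor Lat at 395, 500 and 521 CPM. Of 28 genes of naive and quiescent T cells 3 were past 1.5-fold, namely Igfbp4, Bcl2 and the kinase inhibitor Pik3ip1. Igfbp4 stood at 501 [467 to 536], 1085 [1019 to 1155] and 913 [859.7 to 969.7] CPM, and these intervals did not overlap. In CD8 barcodes of the same libraries Igfbp4 stood at 149, 405 and 399 CPM, also lowest in library 1. Bcl2 stood at 278 [253 to 304], 357 [319 to 397] and 475 [436 to 516] CPM. Ccr7 stood at 415, 441 and 472 CPM, S1pr1 at 201, 206 and 204 CPM and Klf2 at 1393, 1355 and 1499 CPM, each within 1.5-fold.

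Of 20 measured genes of cytokine signalling 7 were past 1.5-fold, a share near the background, and all 7 were lowest in library 1. Socs3, an inhibitor of receptors that signal through Stat3, stood at 41.4 [32.2 to 52.4], 239 [208 to 272] and 278 [249 to 310] CPM, and the highest library was 6.73 [5.18 to 8.86] times the lowest. Without the Tyrobp barcodes this ratio was 7.08. A Socs3 UMI was held by 54, 89 and 128 members, that is 18.6%, 59.7% and 65.0% of them, or 7.64%, 29.7% and 34.9% after thinning. In B barcodes the share was 2.32%, 9.70% and 7.72%, or 2.04%, 3.81% and 2.26% after thinning. CD8 barcodes held 36.9, 140 and 202 CPM, B barcodes 5.98, 48.6 and 32.4 CPM and neutrophil barcodes 147, 607 and 272 CPM, so library 1 was lowest in these classes too. Socs1, its relative that inhibits interferon and common gamma chain receptors, stood at 23.4 [16.6 to 32.0], 71.6 [55.3 to 91.0] and 69.6 [55.4 to 86.4] CPM. Il7r stood at 541 [506 to 577], 761 [706 to 820] and 746 [698 to 797] CPM, within 1.5-fold, and the interferon gamma receptor chain Ifngr1 stood at 59.97, 108 and 135 CPM.

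Genes known to respond to glucocorticoids were past 1.5-fold in 9 of 14 cases, and 8 of these were lowest in library 1. Without the Tyrobp barcodes 9 of 14 were past it and 7 were lowest in library 1. Tsc22d3 (GILZ), a glucocorticoid-induced inhibitor of inflammatory transcription, stood at 216 [195 to 240], 428 [387 to 473] and 436 [399 to 476] CPM. Ddit4, an inhibitor of mTOR signalling, stood at 13.2 [8.27 to 19.97], 70.5 [54.4 to 89.8] and 70.5 [56.1 to 87.3] CPM. Txnip, an inhibitor of thioredoxin and of glucose uptake, stood at 216 [194 to 239], 582 [534 to 634] and 597 [553 to 643] CPM. For these 3 genes library 1 lay below the others without overlap, and libraries 2 and 3 overlapped. CD8 barcodes gave 249, 455 and 422 CPM of Tsc22d3 and B barcodes 279, 810 and 684 CPM. The receptor itself, Nr3c1, stood at 52.8, 48.8 and 51.8 CPM. The median log2 difference of the measured list from the mean over libraries was -0.45, 0.26 and 0.14, against -0.03, 0.03 and 0.01 over all measured genes.

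Immediate early genes showed 8 of 13 past 1.5-fold, 7 of them lowest in library 1. Junb, a subunit of the AP-1 factor, stood at 63.6 [52.0 to 76.9], 232 [202 to 265] and 205 [180 to 232] CPM. CD8 barcodes held 85.9, 192 and 188 CPM, B barcodes 107, 214 and 186 CPM and neutrophil barcodes 897, 1241 and 762 CPM. Nfkbia, the inhibitor of NF-kappaB, stood at 127, 189 and 190 CPM, and Dusp2, a phosphatase of MAP kinases, at 32.4, 62.9 and 64.5 CPM. Klf4 was under the UMI minimum and is given by its level alone, at 1.80, 1.08 and 22.1 CPM with the Tyrobp barcodes. Cd69, which holds T cells in lymphoid tissue, stood at 87.0, 129 and 141 CPM.

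**Figure D4:**
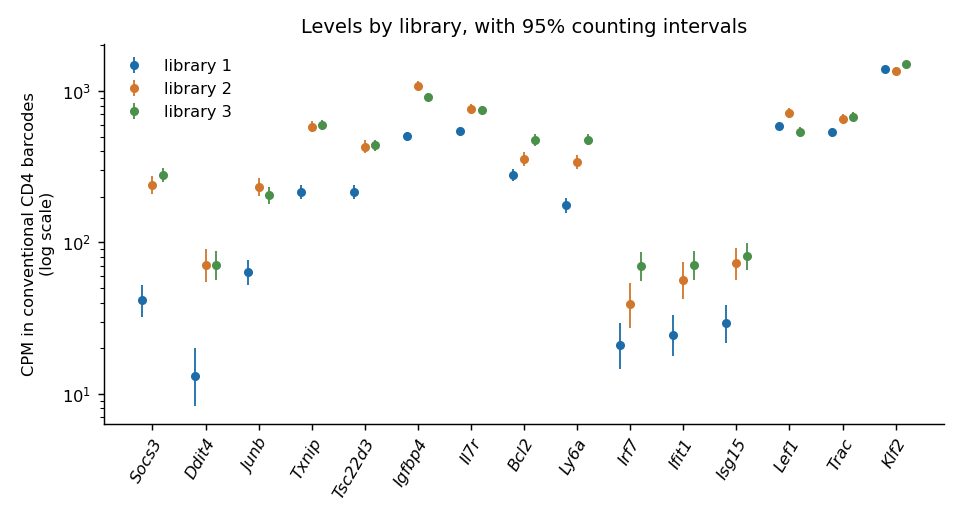
CPM of 15 genes in conventional CD4 barcodes of each library on a log axis, with exact 95% Poisson intervals; the last 3 genes (Lef1, Trac, Klf2) are shown for scale. Socs3 (41.4, 239 and 278 CPM), Ddit4, Junb, Txnip and Tsc22d3 were lowest in library 1, and Irf7 and Ly6a were highest in library 3.

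Genes of survival and cell death gave 6 of 12 past 1.5-fold, among them Bcl2 (above) and Bbc3 (Puma), which promotes apoptosis and stood at 17.4 [11.7 to 25.0], 44.5 [31.9 to 60.3] and 64.5 [50.8 to 80.8] CPM. Both the survival gene and the death gene were lowest in library 1. The death receptor Fas stood at 15.0, 26.0 and 30.6 CPM. Of 11 measured cell cycle genes 2 were past 1.5-fold, and of these Cdkn2d, an inhibitor of cyclin D kinases, stood at 52.8, 123 and 140 CPM. Heat shock genes (1 of 9) and glycolysis genes (2 of 13) were mostly even, and Ldha stood at 215 [194 to 239], 327 [292 to 366] and 332 [300 to 366] CPM. Clock genes were too low for most readings, with 5 of 19 measured, and the beta adrenergic and cyclic AMP list had 2 of 9 past 1.5-fold. MHC class I genes had 3 of 14.

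Homing and adhesion genes were past 1.5-fold in 5 of 20 cases. Itga6, an integrin chain that binds laminin, stood at 164 [145 to 185], 88.9 [70.7 to 110] and 73.0 [58.4 to 90.2] CPM, and Itgb1 at 97.7 [83.3 to 114], 37.9 [26.4 to 52.8] and 55.2 [42.6 to 70.3] CPM, both highest in library 1. Both chains were also highest in library 1 in B barcodes, at 88.6, 36.2 and 42.1 CPM for Itga6 and 96.8, 50.5 and 53.1 CPM for Itgb1, and both occur in platelets. The retention receptor Cxcr4 stood at 15.6, 43.4 and 29.7 CPM. Costimulation genes were past 1.5-fold in 6 of 10 cases with no common direction, 3 being highest in library 1 and 3 in library 3. Cd40lg stood at 72.6 [60.2 to 86.7], 45.5 [32.8 to 61.6] and 40.7 [30.05 to 54.0] CPM and Icos at 39.0, 34.7 and 66.2 CPM. Memory and activation genes gave 11 of 17, and 8 of 13 without the Tyrobp barcodes.

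RNA of other cells moved between the libraries along with these levels. The summed CPM of the platelet list in conventional CD4 barcodes was 4767, 1885 and 2247, highest in library 1 for all 9 measured genes, and it was 5842, 2491 and 2990 in B barcodes. The neutrophil list summed to 164, 1540 and 899 CPM, and to 63.2, 847 and 841 CPM without the Tyrobp barcodes, with 0 UMIs of Camp, Ltf and Stfa2. In neutrophil barcodes (at least 10% of UMIs from S100a8 and S100a9) it summed to 188920, 332631 and 395047 CPM. Of the 19 genes of this list 2 belong to the rule. How far its level in members lies below neutrophil barcodes was therefore set in part by how both were chosen. The monocyte list summed to 759, 1241 and 1535 CPM, and to 540, 456 and 447 CPM without the Tyrobp barcodes. The B cell list, of whose 16 genes 2 belong to the rule, summed to 658, 292 and 428 CPM. Haemoglobin and other red cell RNA summed to 1521, 5931 and 4300 CPM. Red cell RNA was also highest in library 2 in B barcodes (3437, 5590 and 5415 CPM). It was lowest there in CD8 barcodes (870, 581 and 6642 CPM) and in barcodes with no coreceptor UMI (770, 546 and 7105 CPM). The part of this RNA in the differences between libraries was not tested.

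Genes were also ranked by the ratio of highest to lowest library. With all members the first 12 genes were Chil3, Ifitm1, Saa3, Lrg1, Apoe, Wfdc17, Gadd45g, Plac8, Socs3, Napsa, Retnlg and Spi1, most of them genes of myeloid cells. Chil3, Saa3, Lrg1, Apoe, Plac8, Napsa and Spi1 were not among the first 12 once the Tyrobp barcodes were left out. The first 12 without them were Ifitm1, Wfdc17, Retnlg, Gadd45g, Socs3, Ddit4, Junb, Ifit3, Bbc3, Flot1, Txnip and the platelet gene Treml1. Ifitm1, Wfdc17 and Retnlg stood at 0 to 66.5 CPM and are abundant in neutrophils. Gadd45g, a growth arrest gene, stood at 0.61, 22.6 and 33.2 CPM without the Tyrobp barcodes, from 1, 20 and 37 UMIs.

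Of 33 measured interferon-stimulated genes 17 were past 1.5-fold, 15 of them highest in library 3 and 14 lowest in library 1. The median log2 difference of the list from the mean over libraries was -0.20, 0.04 and 0.27. Without the Tyrobp barcodes 16 of 32 were past 1.5-fold, 15 highest in library 3 and 14 lowest in library 1, with medians of -0.25, 0.02 and 0.25. Ifi27l2a stood at 476 [443 to 510], 479 [436 to 526] and 941 [887 to 999] CPM. Irf7, the factor that amplifies interferon production, stood at 20.99 [14.6 to 29.2], 39.0 [27.3 to 54.0] and 69.6 [55.4 to 86.4] CPM. Isg15, a ubiquitin-like protein that is joined to other proteins, stood at 29.4 [21.7 to 38.9], 72.6 [56.3 to 92.3] and 81.5 [66.0 to 99.5] CPM. Of its 49 UMIs in library 1, 10 lay in 1 Tyrobp barcode. Ly6a stood at 176 [157 to 198], 339 [303 to 379] and 477 [439 to 518] CPM. CD8 barcodes held 34.3, 39.9 and 89.0 CPM of Isg15, B barcodes 11.7, 19.4 and 27.1 CPM and neutrophil barcodes 66.4, 119 and 184 CPM.

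Isg15 RNA was carried by few members, and these carried other interferon-stimulated RNA as well. The split was chosen after these levels were seen and leaves out the Tyrobp barcodes. At least 2 Isg15 UMIs were held by 6, 6 and 19 members of libraries 1, 2 and 3, and 0 UMIs by 258, 114 and 158. An Isg15 UMI was found in 32, 34 and 37 members, or in 3.47%, 10.8% and 10.3% after thinning. In B barcodes the shares were 3.81%, 4.99% and 5.92%, or 0.611%, 3.17% and 3.09% after thinning. Among 2565 genes with at least 30 UMIs in each library, 41 (1.6%) were at least 1.5 times higher in all 3 libraries in members with Isg15, and 46 (1.79%) were lower. Members with Isg15 held only 35041, 39757 and 114535 UMIs in all, so a gene with few UMIs can count as lower through counting error. Apart from the kinds of gene left out of naming, none of the 46 had intervals below 1 in all 3 libraries. TMM scaling moved the log2 ratios by -0.554, -0.460 and -0.209 and gave 14 higher and 163 lower. The ratios of the named genes below stayed above 1 in each library after that shift, but not all of their intervals did. In library 1 the intervals of Ifi27l2a, Ifi203, Ifi47, Slfn1 and Slfn5 then reached 1, and in library 2 that of Ifi203 did.

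The interferon list stood apart within this split, with 15 of 23 measured genes higher and none lower, and a median log2 ratio of 1.66 against -0.04 over all measured genes. These values are without TMM scaling, under which only 14 genes of any kind were higher, so not all 15 stay past the fold. Ifit1, which binds foreign RNA lacking a host cap, stood at 200, 704 and 471 CPM in members with Isg15 and at 17.1, 10.2 and 23.3 CPM in the others, a ratio of 11.7 [4.27 to 27.8], 69.1 [29.5 to 187] and 20.3 [12.04 to 35.3]. Ly6a was 2.87, 4.27 and 4.13 times higher, Ifi206 was 3.45, 4.24 and 4.62 times higher and the Schlafen gene Slfn5 4.64, 7.08 and 5.59 times higher. Slfn1, the GTPases Igtp and Ifi47, Ifi27l2a and Ifi203 were also higher in each library. Barcodes of the split had median depths of 5473, 6880 and 6208 UMIs with Isg15 and 5699, 6013 and 5707 without.

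Promoters of Isg15, which defines the split, and of the named genes were read for the interferon-stimulated response element, because it is a known element of promoters that respond to interferon. The letters searched were 2 copies of TTTC that lie 2 bases apart, or of GAAA for the other strand, in the 150 bases just before the start of transcription in RefSeq (build GRCm38.p6). Each promoter is written 5′ to 3′ on the strand of its gene, with matches in capitals. Isg15 and the first named genes with and without a match are shown. The Isg15 window lies at chr4:156200819-156200968 on the minus strand with 3 overlapping matches, the Ifit1 window at chr19:34640739-34640888 on the plus strand with 2 matches, the Ifi206 window at chr1:173491319-173491468 on the minus strand with 1 match, and the Slfn5 window at chr11:82951952-82952101 on the plus strand with none.
Isg15: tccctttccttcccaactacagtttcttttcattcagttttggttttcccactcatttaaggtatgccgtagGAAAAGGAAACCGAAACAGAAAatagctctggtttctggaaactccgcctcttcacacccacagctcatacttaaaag
Ifit1: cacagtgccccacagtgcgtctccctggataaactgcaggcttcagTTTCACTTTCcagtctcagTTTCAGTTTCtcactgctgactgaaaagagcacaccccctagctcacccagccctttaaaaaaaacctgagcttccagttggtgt
Ifi206: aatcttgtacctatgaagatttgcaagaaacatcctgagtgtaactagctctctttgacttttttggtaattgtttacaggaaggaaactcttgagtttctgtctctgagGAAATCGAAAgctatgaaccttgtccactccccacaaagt
Slfn5: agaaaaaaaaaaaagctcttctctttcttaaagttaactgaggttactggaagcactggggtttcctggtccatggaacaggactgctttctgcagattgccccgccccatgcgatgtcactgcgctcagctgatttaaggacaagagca
Of the 10 named genes 7 had a promoter in the table. Ifit1, Ifi206 and Igtp held the letters, and Slfn5, Slfn1, Ifi47 and Ifi203 did not. The letters were found in 433 of 27025 promoters of that length (1.60%). They were found in 41 of 2053 promoters (2.00%) of the genes measured in the split, in 9 of 32 genes that were higher with Isg15, and in 12 of 26 genes of the interferon list with an entry. A match says that the letters are there and not that a factor was bound, and a missing match says only that they are not in this window.

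Ly6c1 divided the class into larger groups. It was held by 136, 67 and 101 members, that is 46.7%, 45.0% and 51.3%, or 26.4%, 26.4% and 30.3% after thinning. In B barcodes the shares were 0.171%, 0.137% and 0.249%, or 0.611%, 0% and 0.206% after thinning. This split was also chosen after levels were seen, and set 81, 43 and 68 members with at least 2 Ly6c1 UMIs against 154, 81 and 94 with 0. Their median depths were 5906, 6618 and 6099 UMIs against 5566, 5528 and 5690. Of 2607 genes 2 (0.0767%) were at least 1.5 times higher in all 3 libraries and 8 (0.307%) were lower. The 2 were Ly6a, at 273, 546 and 753 CPM against 111, 205 and 269 CPM, and Ifit1, at 39.9, 69.6 and 101 CPM against 15.0, 38.5 and 49.9 CPM with an interval that reached 1 in library 2. Ly6e, a further gene of the family, was 1.54 [1.34 to 1.76], 1.34 [1.16 to 1.55] and 1.29 [1.13 to 1.47] times higher.

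Members without Ly6c1 held more RNA of a few other genes. Izumo1r (folate receptor 4), known from regulatory and anergic CD4 T cells, stood at 62.3, 85.6 and 74.9 CPM in members without Ly6c1 and at 10.5, 17.4 and 37.1 CPM in members with it, a ratio of 0.17 [0.05 to 0.42], 0.20 [0.06 to 0.52] and 0.49 [0.25 to 0.92]. Id2, an inhibitor of E protein transcription factors, stood at 0.27, 0.33 and 0.55 times its level in members without Ly6c1. Bcl2 stood at 0.70, 0.71 and 0.51 times and Igfbp4 at 0.60, 0.84 and 0.61 times, with intervals below 1 in each library. Neither Bcl2 nor Igfbp4 was at least 1.5 times lower in all 3 libraries. Besides Izumo1r and Id2, the genes at least 1.5 times lower included Trappc3, Mxd4, Slc9a3r1, Sipa1 and Trim8. The latter were named after their values were seen, and each had an interval that reached 1 in at least 1 library. The ratios of Izumo1r rest on 5, 5 and 15 UMIs in members with Ly6c1.

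**Figure D5:**
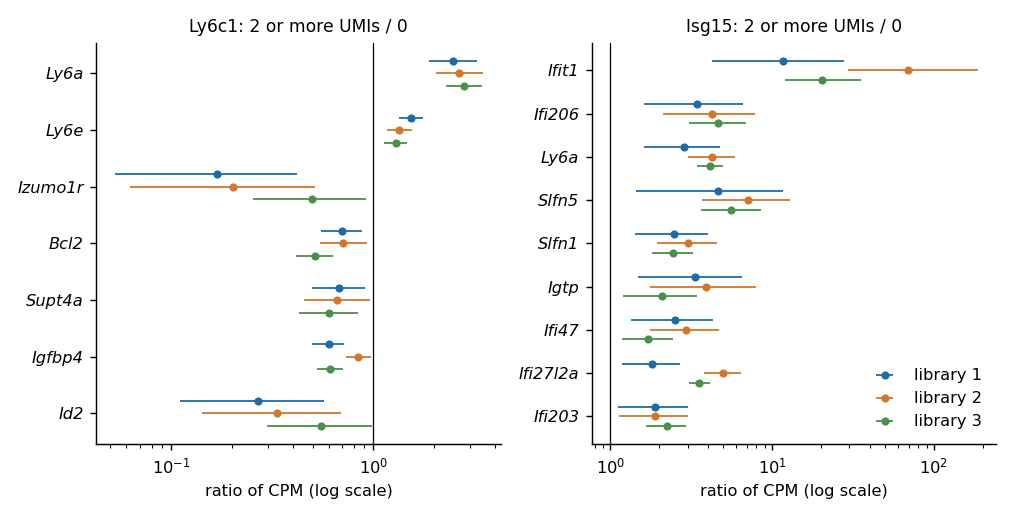
Points give the CPM ratio in each library, on log axes with exact conditional 95% intervals, of members with at least 2 UMIs to members with 0 UMIs of Ly6c1 (left) and of Isg15 (right). Ly6a was above 1 in both splits in all 3 libraries, Izumo1r was below 1 with Ly6c1, and Ifit1 was 11.7, 69.1 and 20.3 times higher with Isg15.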

How the data were processed

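In 3 droplet libraries (10x Genomics 3′ chemistry) RNA of leukocytes from C57/BL6J blood was counted. The deposited values are raw UMI counts per gene and barcode, in 1 matrix of 31053 genes and 22204 barcodes, and the libraries hold 40807434, 30114546 and 36523283 UMIs. Cell Ranger 6.0.2 wrote the counts, per the file headers. The submitters' processing notes give Cell Ranger as 4.0.0 instead, beside the read trimmer Trimmomatic 0.39, the R package Seurat 3.0 with R 4.0.2, and the build GRCm38. The rule by which the authors accepted barcodes was not used here. Samples could not be tied to the barcode endings, so no groups were compared.

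Computed here, with Python 3.11.15, numpy 2.4.6, scipy 1.17.1 and edgeR 4.0.16 (TMM only), were sums of UMIs per class and library, CPM with exact Poisson intervals, shares with Clopper-Pearson intervals and CPM ratios with exact conditional intervals. Intervals cover counting error only. Interval coverage was tested only on counts simulated with counting error alone, which is what the intervals assume. Spread between cells or mice was not part of that test. Doublets were called per library with Scrublet (scanpy 1.11.5, expected rate 6%) and stayed in, except in 1 alternative. Its automatic threshold marked 7 of 7122 barcodes (0.0983%) in library 1 and had not worked there, so the mean threshold of the other libraries was used, which marked 225 (3.16%), beside 128 (2.14%) and 222 (3.84%).

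Named genes were, per contrast, the first 10 each way by the interval bound nearest to a ratio of 1, in the library where that bound was closest, and the first 12 for the ratio of highest to lowest library. Haemoglobin, mitochondrial, ribosomal, immunoglobulin and receptor segment genes, genes of the rule and unnamed models were left out, and the genes of 31 lists could be named as well. The members, lists and splits were chosen with earlier results of these data known. For shares after thinning, at most 500 B or neutrophil barcodes were drawn per library and shallower barcodes were left out. In list medians 0.5 UMIs were added to each sum. Of 31053 feature IDs 30934 are in GENCODE M21, which gave gene positions (GRCm38). Some genes that the rule names are not reported here.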

Additional observations from a re-analysis of the deposited data

How the results depend on the processing

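Alternatives changed 1 choice at a time, except that the limits of 500 genes and 5% mitochondrial UMIs were set together. Of the values of the main comparisons 134 stayed close to the main value and 60 moved. Values counted as close could still differ: genes lower than in CD8 barcodes went from 22 to 15 with 2 Cd4 UMIs. Of the further values, such as ratios of single genes, 620 stayed close, 77 moved and 2 reversed. No paired analysis was possible because each group has 1 library and the barcode endings carry no group. Requiring 2 Cd4 UMIs left 8.07%, 6.92% and 8.12% of CD3 barcodes in libraries 1, 2 and 3; 500 genes with 5% mitochondrial UMIs gave 25.8% and 18.2% in libraries 1 and 2, and no Cd79a or Cd79b UMI gave 17.3% in library 1. Against CD8 barcodes the genes higher were 10 with 2 Cd4 UMIs, 5 with 500 genes and 5% mitochondrial UMIs, 8 without Ccl5 or Nkg7 UMIs and 58 with a UMI minimum of 20; those lower were 2, 1 and 52 under the last 3. Against regulatory-like barcodes the genes higher were 66 with 2 Cd4 UMIs, 87 with 500 genes and 5%, 580 with TMM, 329 with a minimum of 20 and 374 without the top cell of each gene; those lower were 47, 59, 23, 409 and 57. Against barcodes with no coreceptor UMI the genes higher were 1 without Ccl5 or Nkg7 UMIs, 1 without Cd79 UMIs, 6 with a minimum of 20 and 1 without the Tyrobp barcodes; those lower were 0 with 500 genes and 5%, 0 without Cd79 UMIs, 5 with a minimum of 20, 0 without the top cell and 0 without the Tyrobp barcodes. Genes past 1.5-fold over the libraries were 1063 with 2 Cd4 UMIs, 893 with 500 genes and 5% and 3313 with a minimum of 20.

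In the Ly6c1 split the genes higher were 1 with 2 Cd4 UMIs, 1 with 500 genes and 5%, 1 without Ccl5 or Nkg7 UMIs, 5 with a minimum of 20, 5 when split on thinned UMIs and 1 with a minimum of 50; those lower were 2 with 2 Cd4 UMIs, 0 with 500 genes and 5%, 17 with a minimum of 20, 17 without the top cell and 3 with a minimum of 50. In the Isg15 split the genes higher were 6 with 2 Cd4 UMIs, 14 with TMM, 19 without the top cell and 20 with a minimum of 50; those lower were 17, 163, 276 and 18, and 94 with a minimum of 20. With 500 genes and 5% mitochondrial UMIs a library had no member with 2 Isg15 UMIs, and this split has no value there. Members with 2 thinned S100a4 UMIs were 0 with 2 Cd4 UMIs, 1 without the Tyrobp barcodes and 2 when thinned to 1000 UMIs. With a minimum of 20, 13 immediate early and 12 neutrophil genes were past 1.5-fold. Izumo1r in the Ly6c1 split reversed with 500 genes and 5% (median log2 ratio 0.055), and Spi1 over the libraries with 2 Cd4 UMIs (log2 ratio -1.76). Stricter filters on barcodes leave fewer barcodes and fewer genes measured; the cause of each move was not tested. The Tyrobp setting, both splits and their 2 further settings (thinned split, minimum of 50), and the doublet threshold of library 1 were chosen after seeing the data.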
